A study of Rattus norvegicus with 9 samples.

Results

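The genes examined here encode receptors, ligands and surface proteins of blood vessels: Kdr, Flt1, Tek, Pecam1, Eng, Angpt1, Angpt2, Vwf, Edn1 and Ednrb. They were taken as a fixed list of 10 genes, each with every probe set that the array's annotation assigns to it. The annotation held 12 probe sets for 9 of them, out of 14217 genes with a probe set of their own, and Ednrb, a receptor for endothelins, was not analysed here. Kdr averaged 6480 on its stronger probe set in the primary cells, and it was 10.8-fold lower in one kind of stem cell-derived cells and 52.0-fold lower in the other, where it lay at the detection threshold. The remaining members gave low signals, and of these only Angpt2 was high enough on enough arrays to be tested.

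Vessels grow when vascular endothelial growth factors (VEGFs) bind tyrosine kinase receptors on endothelial cells. Kdr (VEGFR-2) is the main signalling receptor, while Flt1 (VEGFR-1) binds VEGF tightly and limits how much of it reaches Kdr. The angiopoietins act on a separate receptor, Tek (Tie2), where Angpt1 is an activating ligand that steadies vessels and Angpt2 a context-dependent ligand released by endothelial cells during remodelling. Endothelins constrict vessels and also act on neural crest cells and glia. In the retina Kdr is not restricted to vessels, since neural progenitors of the developing retina are known to carry it too.

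RNA from 9 samples was hybridized to Affymetrix rat genome arrays, 1 array per sample and 3 biological repeats per group. P-RPCs were cells of retinal tissue dissociated from Sprague-Dawley (SD) rats at postnatal day 1, collected without a described sort, so that the cells of retinal vessels could be part of them. Both rESC-RPC groups were derived from 1 embryonic stem cell line of the DA rat strain, DA8-16, through floating aggregates with a Wnt inhibitor, IWR-1e, and Matrigel, with serum from day 8 and harvest on day 16. The rESC-RPC1 aggregates were dissociated and plated on day 10 and moved to N2 medium with serum on day 14, and the rESC-RPC2 aggregates were plated on day 14. Strain, age and culture cannot be told apart from cell type in either comparison with P-RPC, nor the change of medium from the length of adherent culture between rESC-RPC1 and rESC-RPC2. The labels do not say how many animals were pooled for a P-RPC sample.

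The values are MAS5 signals, intensities on a linear scale that the authors had scaled to the same trimmed mean on every array, with medians of 113 to 128. A signal was counted as detected at 123 or more, the median of all values on all arrays, and a gene was tested if at least 3 of the 9 arrays reached it, which left 9956 genes. A gene was called changed at a Benjamini-Hochberg adjusted p under 0.05 in limma together with a change of at least 2-fold. Crystallin RNA set 1 array apart, since 13 of 14 crystallin genes were at least 4-fold higher on the first P-RPC array than on both others. Whether this RNA came from lens was not tested. For the label of the groups, 10 of the 11 retinal progenitor markers on the array were detected on all 3 P-RPC arrays, 7 in rESC-RPC1 and 6 in rESC-RPC2. In bulk RNA, fewer cells of a type and less RNA per cell cannot be told apart.

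Promoter sequences of the VEGF receptors are given because both receptors bind VEGF-A while only Kdr was detected. They are the 300 bases around a transcript start in RefSeq (rat build GRCr8), with 250 bases before it and 50 after it, and RefSeq promoters were found for 5 of the 10 genes. Capitals mark the GC box, the binding motif of Sp1-type factors, searched as GGGCGG on both strands (CCGCCC on the other). The Kdr window lies on the plus strand at chr14:32571813-32572112 and the Flt1 window on the plus strand at chr12:12333180-12333479.
Kdr: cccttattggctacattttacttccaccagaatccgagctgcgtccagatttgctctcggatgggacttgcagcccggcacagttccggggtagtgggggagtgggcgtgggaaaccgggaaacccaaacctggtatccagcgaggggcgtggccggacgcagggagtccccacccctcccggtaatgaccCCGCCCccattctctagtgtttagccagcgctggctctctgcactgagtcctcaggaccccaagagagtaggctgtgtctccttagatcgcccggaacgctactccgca
Flt1: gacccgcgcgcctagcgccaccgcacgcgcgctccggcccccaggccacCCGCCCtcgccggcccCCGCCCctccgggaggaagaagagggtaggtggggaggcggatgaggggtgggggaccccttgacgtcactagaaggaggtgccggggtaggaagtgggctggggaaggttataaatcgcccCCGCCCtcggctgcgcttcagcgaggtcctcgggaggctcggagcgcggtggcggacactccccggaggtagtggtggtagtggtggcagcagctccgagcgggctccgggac
The Kdr window held 1 GC box and the Flt1 window 3, and a GC box was found in 33.1% of all 33469 promoters of this length. The GC content was 61.0% for Kdr, with 18 CpG pairs, and 72.7% for Flt1, with 31 CpG pairs, against medians of 51.7% and 7 over all promoters. A TATAAA box, searched on both strands, matched 1 time in the Flt1 window, did not match in the Kdr window and was found in 14.2% of all promoters. These letter counts describe the windows and say nothing of binding in the cells studied.

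Kdr (Entrez gene ID 25589) was measured by a pair of probe sets. On the stronger, 1367948_a_at, the P-RPC signals reached 6361, 6357 and 6722, those of rESC-RPC1 were 593, 981 and 370, and those of rESC-RPC2 were 130, 119 and 125. The groups did not overlap, and their order was P-RPC, then rESC-RPC1, then rESC-RPC2, which lay around the detection threshold with 2 of 3 arrays above it. The P-RPC and rESC-RPC2 arrays were close to each other, with 6480 ± 209 and 125 ± 5.49 (SD, n = 3), whereas rESC-RPC1 was spread more widely at 648 ± 309. On the weaker probe set, 1397868_at, the signals were 118, 85.7 and 77.0 in P-RPC and from 3.21 to 47.7 in the other groups, under the threshold on all 9 arrays. With this probe set rESC-RPC1 and rESC-RPC2 overlapped, at means of 19.3 and 19.1.

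**Figure D1:**
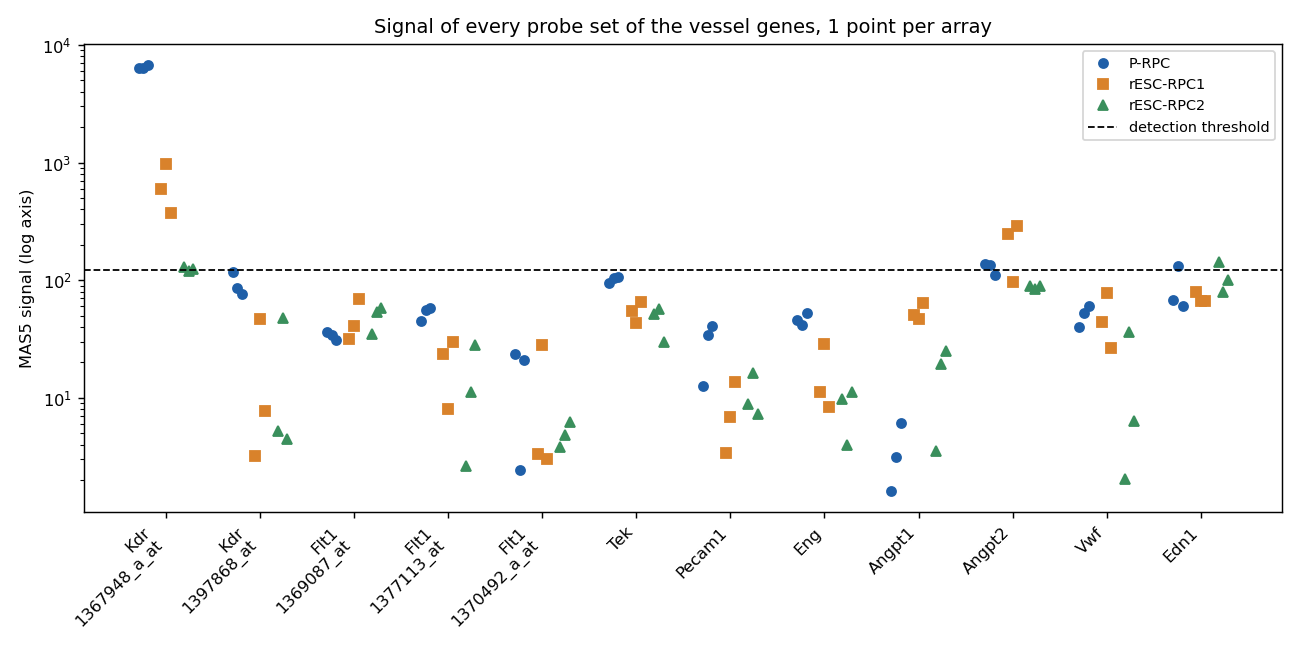
Signals of the 12 probe sets on the 9 arrays (MAS5 signal, log axis), with a point for each array, a colour for each of the 3 groups and the detection threshold of 123 as a dashed line. Kdr probe set 1367948_a_at lies far above the threshold in P-RPC and near it in rESC-RPC2, and most other probe sets stay under it in all groups.

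Relative to P-RPC, Kdr was lower in rESC-RPC1 by a log2 fold change of -3.43 ± 0.27 (standard error), a 10.8-fold difference with an adjusted p of 2.36e-06 in limma. It was lower in rESC-RPC2 by -5.70 ± 0.27 on the log2 scale, or 52.0-fold, with an adjusted p of 7.81e-08 in limma. Because rESC-RPC2 lay at the detection threshold, this value was also computed with signals under the threshold raised to it, which gave -5.69 ± 0.27 (adjusted p = 1.48e-07 in limma). Between the kinds of stem cell-derived cells the rESC-RPC2 level was 4.81-fold lower, at -2.27 ± 0.27 on the log2 scale with an adjusted p of 7.66e-05 in limma. All 3 differences exceeded the spread between arrays, and Kdr was the gene with the 124th, 43rd and 174th largest fall among the 9956 genes tested, in that order of the comparisons. The comparisons share groups, so these ranks are not independent of each other.

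Across all genes tested, 21.5% were called in rESC-RPC1 against P-RPC (9.56% lower and 12.0% higher), 23.7% in rESC-RPC2 against P-RPC (13.0% lower and 10.7% higher) and 14.3% in rESC-RPC2 against rESC-RPC1 (9.25% lower and 5.02% higher). Of the members, Kdr was called lower in all 3 comparisons and Angpt2 in the last, while 8 of the 10 genes were not tested. With P-RPC replicate 1 left out, the Kdr log2 fold changes were -3.45, -5.71 and -2.27, with adjusted p of 3.16e-05, 1.88e-06 and 0.000240 in limma.

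**Figure D2:**
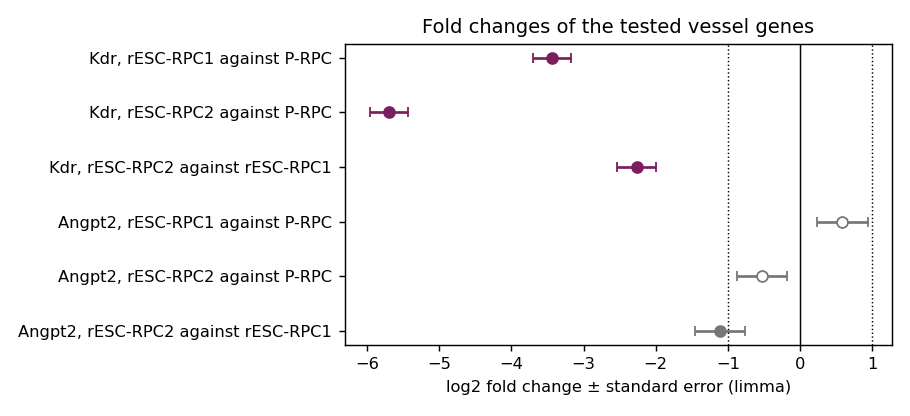
Log2 fold changes of Kdr and Angpt2 in the 3 comparisons, with standard errors from limma as bars, filled points for calls, open points for no call and dotted lines at a change of 2-fold. Kdr lies beyond the line to the left in each comparison, and Angpt2 passes it only between rESC-RPC2 and rESC-RPC1.

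The pattern of Kdr over the 9 arrays was matched most closely by Myb, a transcription factor of dividing progenitors in blood and brain, with a Pearson r of 0.999 on the log2 scale. Myb signals were 7039.6 ± 741 in P-RPC, 638 ± 347 for rESC-RPC1 and 114 ± 10.8 for rESC-RPC2. Trpm3, a cation channel, followed at r = 0.998. These correlations describe 9 arrays in 3 groups, and the differences between the group means are shared by all points of a group.

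Angpt2 (Entrez gene ID 89805) gave signals of 137, 135 and 112 in P-RPC, 249, 97.3 and 288 in rESC-RPC1, and 90.2, 85.0 and 90.2 in rESC-RPC2. The rESC-RPC2 arrays were all under the threshold, and the rESC-RPC1 arrays were spread from under it to the highest values of the gene. With means of 128 ± 14.3, 211 ± 101 and 88.5 ± 3.0 (SD, n = 3), the rESC-RPC1 signal was at least 1.56-fold higher than that of rESC-RPC2. The fit called this difference at -1.11 ± 0.35 on the log2 scale (adjusted p = 0.0235 in limma), a value that rests on rESC-RPC2 signals under the threshold. With such signals raised to the threshold it was -0.75 ± 0.26 (adjusted p = 0.0369), short of a 2-fold change and not called. Against P-RPC, the fitted values were 0.59 ± 0.35 (adjusted p = 0.174 in limma) in rESC-RPC1 and -0.53 ± 0.35 (adjusted p = 0.211) in rESC-RPC2, with no call.

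The Angpt2 call was also lost with the methods' t-test (adjusted p = 0.164, an alternative to the limma fit) and when single arrays were left out. It did not hold without rESC-RPC1 replicate 1 (adjusted p = 0.0960 in limma), without rESC-RPC1 replicate 3 (0.0764) and without any 1 rESC-RPC2 array (0.0511 to 0.0607). Without rESC-RPC1 replicate 2, the array with the lowest Angpt2 and the highest Kdr signal of that group, Angpt2 also passed the call against P-RPC in rESC-RPC1, by 1.07 on the log2 scale with an adjusted p of 0.00104 in limma. The Angpt2 pattern was most like that of Slc18a2, the vesicle transporter of monoamines, at r = 0.968 over the 9 arrays.

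Flt1 (Entrez gene ID 54251), the other VEGF receptor of the list, was measured by 3 probe sets and stayed under the threshold on all 9 arrays with each. Its signals ran from 30.8 to 70.0 on probe set 1369087_at, from 2.65 to 58.5 on 1377113_at and from 2.43 to 27.9 on 1370492_a_at. On 1377113_at the P-RPC arrays, at 45.2, 56.3 and 58.5, were all above the others, and on the remaining probe sets the groups overlapped. No fold is given for signals under the threshold in both groups.

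Tek (Entrez gene ID 89804), the angiopoietin receptor, gave 95.6, 105 and 106 in P-RPC and from 30.1 to 65.3 in the stem cell-derived cells, so P-RPC lay above both other groups but under the threshold. Its ligand Angpt1 (89807) gave 1.61 to 6.16 in P-RPC, 46.6 to 64.6 for rESC-RPC1 and 3.53 to 24.9 for rESC-RPC2, with rESC-RPC1 apart from the rest at signals that do not count as detected. In each gene 1 group stood apart while the other groups overlapped, and neither gene had enough detected arrays to be tested with the filter in place.

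Pecam1 (29583), an adhesion molecule of endothelial junctions that platelets and leukocytes also carry, ran from 3.39 to 41.0 over the 9 arrays. Eng (497010), the endothelial co-receptor of the TGF-beta family, gave 42.0 to 52.2 in P-RPC and 4.0 to 28.8 in the other cells, without overlap. Vwf (116669), the clotting protein stored by endothelial cells and platelets, ran from 2.06 to 78.2 with overlapping groups. Edn1 (24323), an endothelin ligand, crossed the threshold on 2 arrays, 132 in P-RPC replicate 2 and 144 in rESC-RPC2 replicate 1, and was 59.97 to 101 on the other 7. All measured members other than Kdr, Angpt2 and Edn1 were under the threshold on every array.

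Other genes of the same pathways were taken from lists of names. Of 8 further VEGF ligands, receptors and co-receptors, 5 were tested, and Vegfd, Pgf and the lymphatic receptor Flt4 were never detected. In rESC-RPC1 against P-RPC 1 was called higher and none lower, in rESC-RPC2 against P-RPC 2 were called higher and none lower, and none was called between the stem cell-derived cells. The median log2 fold changes were 0.23, 0.47 and 0.42, against medians over all genes of -0.01, -0.02 and -0.03.

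Vegfc, a ligand of the lymphatic receptor that can also bind Kdr, rose from 215 ± 26.9 in P-RPC to 757 ± 284 in rESC-RPC1 and 1164 ± 191 in rESC-RPC2. Its log2 fold changes were 1.76 ± 0.23 (adjusted p = 7.95e-05 in limma) and 2.43 ± 0.23 (adjusted p = 7.44e-06). Nrp2, a VEGF co-receptor, was at 157 ± 14.7, 293 ± 101 and 501 ± 29.3 and passed the call for rESC-RPC2 against P-RPC, at 1.68 ± 0.21 on the log2 scale (adjusted p = 5.51e-05). Vegfa, the main ligand of Kdr, was named after its values were seen and was at 1054 ± 44.2, 1270 ± 380 and 784 ± 10.9, called in no comparison.

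Among 6 other angiopoietin and Tie genes, 5 were on the array and only Angptl4 was tested, a secreted inhibitor of lipoprotein lipase. It rose from 180.3 ± 75.1 in P-RPC to 1414 ± 985 in rESC-RPC1 and 3072 ± 245 in rESC-RPC2, or by 2.82 ± 0.43 and 4.17 ± 0.43 on the log2 scale (adjusted p = 0.000243 and 1.41e-05 in limma). The receptor Tie1, the phosphatase Ptprb and the ligand Angpt4 were never detected. Of 5 other endothelin genes, 3 were on the array and Ece1, the enzyme that makes active endothelin from its precursor, was the one tested. Ece1 was highest in rESC-RPC1, at 1746 ± 108 against 265 ± 25.8 in P-RPC and 488 ± 40.1 in rESC-RPC2. It was called higher in the first than in the second of these (log2 fold change 2.72 ± 0.11, adjusted p = 3.83e-08 in limma) and lower in rESC-RPC2 than in rESC-RPC1 (-1.84 ± 0.11, adjusted p = 2.12e-06).

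Of 12 genes that work with Eng, 9 were on the array and 6 were tested. The endothelial receptor Acvrl1 was never detected, nor were Tgfbr3 and Tgfb1. Id3, a target gene of BMP signalling, was the only one of the 6 called, at 2166 ± 353 in P-RPC, 8211 ± 370 for rESC-RPC1 and 8110 ± 1243 for rESC-RPC2. The rise was 1.93 ± 0.13 and 1.90 ± 0.13 on the log2 scale (adjusted p = 8.16e-07 and 8.26e-07 in limma). The median of the 6 genes stayed within 0.08 of 0 in each comparison.

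**Figure D3:**
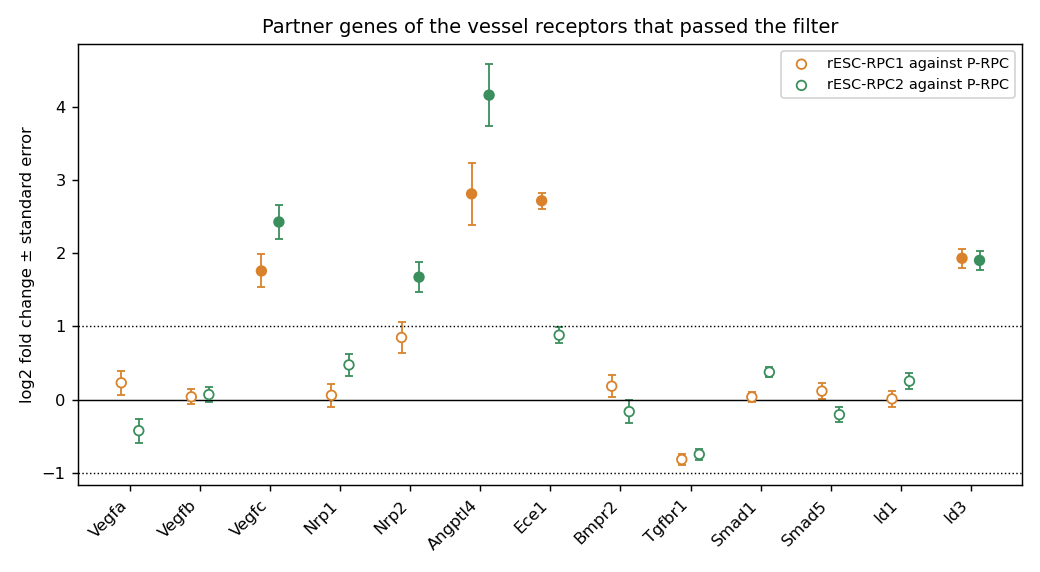
Log2 fold changes of the tested genes of the VEGF, angiopoietin, endothelin and endoglin lists in both comparisons with P-RPC, with standard errors as bars, filled markers for calls and open markers for no call. Vegfc and Id3 lie above a change of 2-fold in both comparisons, and Ece1 lies above it only in rESC-RPC1 against P-RPC.

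Most markers of endothelial cells outside the members were not detected. Of 35 listed, 32 were on the array, and 23 of these were under the threshold on every array, among them the endothelial transcription factors Erg, Fli1, Sox7, Sox17 and Sox18, the surface proteins Esam, Emcn, Icam2 and Clec14a, the secreted Egfl7 and the synthase Nos3. Cldn5, a tight junction protein of vessels, was named after its values were seen. Among the markers not detected on all 3 P-RPC arrays it came nearest, at 129 ± 9.25 with 2 of 3 arrays above the threshold. It was under the threshold in the other groups. Of the 23 never detected, Emcn (92.8 ± 0.90 in P-RPC), Tal1, Adgrl4, Sox17, Clec14a, Icam2, Mmrn2 and Plvap were higher on every P-RPC array than on any other array. In the rest of the 23, P-RPC overlapped at least 1 other group. Signals under the threshold give no fold here, and these genes were named after their values were seen. On all 3 arrays of a group, 6 markers were detected in P-RPC, 5 for rESC-RPC1 and 4 for rESC-RPC2. The summed signal of the 32 markers was 5700 to 6285 in P-RPC, 4305 to 5303 for rESC-RPC1 and 2520 to 2958 for rESC-RPC2. Prox1 made up much of these sums, and without it they were 3465 to 3840, 3936 to 4465 and 2039 to 2397, highest in rESC-RPC1. Vcam1 had the largest signal of those left and was itself highest there, with group means of 982, 1927 and 679 in the same order. Sums without Vcam1 were not computed, so the order of the groups can rest on this 1 gene. The part of endothelial cells in the Kdr difference was not tested.

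The 8 endothelial markers tested moved in both directions. In rESC-RPC1 against P-RPC 3 were called higher and 3 lower, in rESC-RPC2 against P-RPC 2 higher and 4 lower, and in rESC-RPC2 against rESC-RPC1 none higher and 3 lower. Their median log2 fold changes were 0.40, -1.41 and -0.68, or 0.40, -0.47 and -0.31 with genes under the threshold in a whole group set at their bounds. Among them Prox1 is a transcription factor of lymphatic vessels and of horizontal cells in the retina. Prox1 fell from 2463 ± 250 in P-RPC to 749 ± 345 in rESC-RPC1 and 520 ± 40.4 in rESC-RPC2 (changes on the log2 scale -1.84 ± 0.30 and -2.24 ± 0.30, adjusted p = 0.000406 and 9.45e-05 in limma).

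Dll4, a Notch ligand of vessel tips and of newborn retinal neurons, was at 595 ± 27.8 in P-RPC and at least 4.85-fold lower in both other groups (adjusted p = 2.62e-06 and 3.33e-06 in limma). Icam1, a leukocyte adhesion molecule, was under the threshold in P-RPC and at least 2.15-fold higher in rESC-RPC1, at 281 ± 113. Apln, a peptide hormone of vessel growth, was under the threshold in P-RPC and at least 3.58-fold higher in rESC-RPC1, at 443 ± 82.4. It was lower again in rESC-RPC2 than in rESC-RPC1, by a log2 fold change of -1.30 ± 0.19 (adjusted p = 0.000275 in limma).

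**Figure D4:**
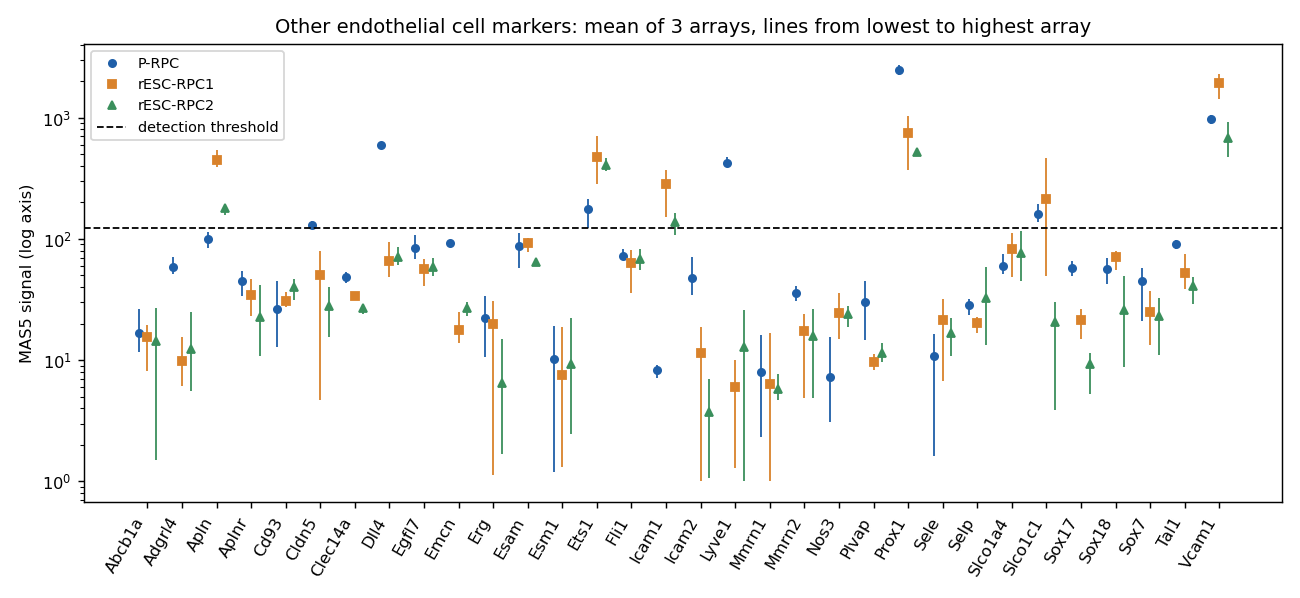
Mean signal of 3 arrays for each of the 32 endothelial markers outside the members (MAS5 signal, log axis), with lines from the lowest to the highest array and the detection threshold as a dashed line. Most markers lie under the threshold in all groups, and Prox1, Vcam1 and Ets1 lie above it in all groups.

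Markers of cells that accompany vessels were read beside Kdr. Of 13 mural cell markers on the array, 2 were tested. Rgs5, a pericyte marker, was at 152 ± 28.2 in P-RPC and under the threshold elsewhere, at least 1.23-fold lower. Acta2, smooth muscle actin, rose from 148 ± 10.5 in P-RPC to 869 ± 784 and 1539 ± 604 in the stem cell-derived groups, with log2 fold changes of 2.17 ± 0.51 and 3.31 ± 0.51 (adjusted p = 0.00374 and 0.000234 in limma). The mural markers gave summed signals of 878 to 957 in P-RPC, 842 to 2392 in rESC-RPC1 and 1556 to 2726 in rESC-RPC2. Without Acta2 these were 729 to 799, 518 to 668 and 526 to 571, highest in P-RPC. Sums without Rgs5 as well were not computed, so this order can rest on that 1 gene. Of the markers not tested, 8 were never detected. Pdgfrb was above the threshold on 2 of 3 rESC-RPC1 arrays (125 ± 49.3, against 40.0 ± 23.7 in P-RPC). Anpep was above it on 1 rESC-RPC1 array and Notch3 on 1 P-RPC array. These genes were named after their values were seen.

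Among 8 blood and platelet markers on the array, Hbb and Pf4 were detected in P-RPC, and Alas2, Slc4a1, Epor, Ppbp and Gp9 were under the threshold on every array. Itga2b, a platelet integrin named after its values were seen, was above it on 2 of 3 rESC-RPC1 arrays (141 ± 46.2) and under it in P-RPC (54.3 ± 9.74). Hbb, the beta globin chain, was at 14347 ± 609.6 in P-RPC and at least 117-fold lower in both other groups, and Pf4, a platelet chemokine, was at 293 ± 12.3 and at least 2.39-fold lower. Summed signals of the 8 markers were 14548 to 15601 in P-RPC, 255 to 435 for rESC-RPC1 and 226 to 266 for rESC-RPC2, or 567 to 680.4, 233 to 422 and 214 to 254 without Hbb. Of 14 microglia and macrophage markers, 7 were detected on all P-RPC arrays, 1 in rESC-RPC1 and none in rESC-RPC2, with C1qa, a complement protein of microglia, at 349 ± 42.5 in P-RPC and at least 2.83-fold lower in the other groups. Their summed signals were 2064 to 2447, 329 to 599 and 308 to 392.

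Most retinal progenitor markers were lower than in P-RPC, as Kdr was. Of the 10 tested, against P-RPC 7 were called lower in rESC-RPC1 and 9 in rESC-RPC2, with none called higher. The medians were -2.70 and -2.66 on the log2 scale (-1.86 and -2.09 at the bounds). Sox2, named after its values were seen, went the other way, by 0.91 ± 0.10 in rESC-RPC1 and 0.39 ± 0.10 in rESC-RPC2, short of a 2-fold change. Pax6, a transcription factor that keeps retinal progenitors multipotent, was at 13972 ± 423 in P-RPC, under the threshold on 2 of 3 rESC-RPC1 arrays (118 ± 74.3) and under it on all rESC-RPC2 arrays, at least 114-fold lower (adjusted p = 8.62e-08 in limma). Between rESC-RPC2 and rESC-RPC1, where Kdr differed 4.81-fold, 1 of these markers was higher and 1 lower. Their summed signals were 69156 to 72316 in P-RPC, 22683 to 30684 for rESC-RPC1 and 17225 to 17991 for rESC-RPC2. The parts of retinal progenitors, vessel cells and blood in the Kdr difference were not tested.

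Neural crest and pigment cell markers, of which 7 were tested, stood at 2 higher and 5 lower in the first comparison with P-RPC and at none higher and 6 lower in the second. Between rESC-RPC2 and rESC-RPC1, 5 of the 7 were lower, among them Pmel, a melanosome protein, at 2064 ± 106 in P-RPC, 339 ± 160 in rESC-RPC1 and under the threshold in rESC-RPC2. Of 9 astrocyte and radial glia markers tested, 6 were called higher and none lower for rESC-RPC1 against P-RPC. For rESC-RPC2 against P-RPC 3 were higher and 2 lower, and 5 were lower in rESC-RPC2 than in rESC-RPC1. Gfap, a filament protein of reactive glia and of astrocytes along vessels, was under the threshold in P-RPC and at 3689 ± 194 in rESC-RPC1 and 979 ± 442 in rESC-RPC2.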

How the data were processed

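Expression was measured on 9 arrays in 3 groups of 3, taken from the labels. The deposited values are linear intensities, which the authors made with MAS5 (background removed, normalized, per their methods), and log2 was taken here, with signals under 1 set to 1 and no rescaling. Of 31099 probe sets, 57 controls were left out, and 20826 of the other 31042 carried 1 gene symbol, 436 several and 9780 none in the platform's probe table. RefSeq's gene table held 20758 of their Entrez IDs, and 0 symbols were updated.

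Probe sets entered the fit if 3 or more of the 9 arrays reached the 50th percentile of all values (123, log2 6.94), with 1 probe set of highest mean per gene. The fit used R 4.3.3 and limma 3.58.1 (lmFit, eBayes with a trend) with 1 mean per group over all 9 arrays, Benjamini-Hochberg adjustment over 9956 genes, and genes were called at adjusted p under 0.05 with a log2 fold change beyond 1 in either direction. A group wholly under the threshold gives folds only as lower bounds, with the threshold in its place. The number of arrays limits the precision.

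The members and lists were chosen with earlier results of these data known. The text names all members, up to 4 called genes with the smallest adjusted p per list, and genes from the 3 most like each tested member, of which some are not reported here. Same-numbered arrays did not pair (r of their deviations from group means -0.04 to 0.27, over 0.1 for 1 of 9 pairs), so no block was used. Alternatives covered scaling, filter, floor, the methods' t-test, the choice of probe set, a replicate block and leaving out each array. The fit was tested on simulated data.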

Additional observations from a re-analysis of the deposited data

How the results depend on the processing

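Kdr kept its direction and its call in all 20 alternatives of each comparison, with log2 fold changes of -3.79 to -3.09 in rESC-RPC1 against P-RPC, -5.73 to -5.62 in rESC-RPC2 against P-RPC and -2.61 to -1.91 in rESC-RPC2 against rESC-RPC1. The number of members called moved more. Without a filter on low signals, 3 members (Angpt1, Eng, Kdr) were called in rESC-RPC1 against P-RPC and 4 (Eng, Kdr, Tek, Vwf) in rESC-RPC2 against P-RPC, and with no filter and all probe sets, an alternative chosen after seeing the data, the counts were 2 and 5. The members added lie under the detection threshold, where signals limit any fold. In rESC-RPC2 against rESC-RPC1 the count rose from 2 to 3 (Angpt2, Kdr, Vwf) without a filter and stayed at 2 with no filter and all probe sets, and it fell to 1, Kdr alone, with a filter at the 60th percentile, with a floor at the threshold (Angpt2 log2 fold change -0.75), and with the methods' t-test, unadjusted or adjusted. Leaving out 1 array at a time gave 1 to 2 members in rESC-RPC1 against P-RPC, 1 in rESC-RPC2 against P-RPC and 1 to 2 in rESC-RPC2 against rESC-RPC1. With a replicate block, 2148, 2363 and 1426 genes were called and the members called stayed at 1, 1 and 2. Counts over all genes ran from 1801 to 2948, 1930 to 3199 and 1132 to 1893 over the alternatives. The cause of the changes in Angpt2 was not tested.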
